A study of Homo sapiens with 8 samples.

Results

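The NR2F genes are described here across single-cell RNA libraries of drug-treated SUM159 cells, a triple-negative breast cancer line. The 4 members were named by a rule that took NR2F1, whose RNA is higher in cells grown with JQ1, together with its relatives NR2F2 and NR2F6 and the antisense gene NR2F1-AS1. Of the 18955 genes of the count table, 3 members have a row (NR2F1, NR2F2 and NR2F6). NR2F1-AS1 was not analysed here. NR2F1 was selected on the contrast between libraries with and without JQ1, so the values of the members in that contrast are a description and carry no test.

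NR2F1 and NR2F2 encode COUP-TFI and COUP-TFII, and NR2F6 encodes the related receptor EAR2. All are orphan nuclear receptors, which bind direct repeats of the half-site AGGTCA in DNA and mostly repress transcription through corepressors. They can also take up RXR as a partner and so interfere with retinoid, thyroid hormone and vitamin D signalling. In the embryo NR2F1 guides the patterning of the nervous system and NR2F2 that of veins and the heart, while in tumour biology NR2F1 is known as a marker of dormant disseminated cells, where SOX9 and RARB have been placed downstream of it.

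All cells carried the ClonTracer lentiviral barcode library, which marks each founder cell with its own DNA tag. The 8 libraries were 1 of cells before treatment, 1 of cells passaged with the solvent DMSO, and 6 of cells passaged with drug for at most 18 passages. The drugs were JQ1 at 100 nM, which displaces BET bromodomain proteins from chromatin, paclitaxel at 0.6 nM, which stabilises microtubules, and palbociclib at 160 nM, which inhibits CDK4 and CDK6. One experiment gave the libraries DMSO, paclitaxel, JQ1-A and JQ1+paclitaxel, and another gave palbociclib, JQ1-B and JQ1+palbociclib. Per the study's methods, cells of 3 parallel cultures were pooled in equal numbers for each library. A culture with JQ1+palbociclib was lost during passaging, so that library may hold fewer cultures than the others. Only JQ1 alone has 2 libraries, and p-values measure the spread between libraries rather than between cultures. In the fit with 1 term per drug, that spread includes the difference between JQ1-A and JQ1-B and that between DMSO and the cells before treatment. It also includes any departure of combined drugs from the sum of their single effects. No DMSO library of the palbociclib experiment was analysed here, so palbociclib against DMSO cannot be told apart from the difference between experiments.

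The table holds 5738 cells with 10621159 to 24240835 unique molecular identifiers (UMIs, each counting 1 captured RNA molecule) per library, and library medians of 20664 to 22503 UMIs per cell. VIM, a mesenchymal filament gene, lay between 3279 and 4502 UMIs per 1000000 UMIs of a library (CPM) and CD44 between 228 and 437. ESR1 and PGR stayed at or below 0.14 CPM, EPCAM at or below 0.565 CPM and the leukocyte gene PTPRC at or below 0.471 CPM. These levels fit the labelled line. Between libraries, 13 cell barcodes recurred, in 26 cells.

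NR2F1 lies on the plus strand of chromosome 5 at 92918928 to 92930317 in GRCh37, the build of the count table. NR2F1-AS1 runs in the opposite direction from 92921355 down to 92696485, so both genes share 2428 bases around the NR2F1 start. The chemistry of the libraries keeps the strand of each RNA and reads its 3′ end, which lies outside that overlap for NR2F1. NR2F2 lies on chromosome 15 at 96869167 to 96883492, again with an antisense gene (NR2F2-AS1) across its start, and NR2F6 on chromosome 19 at 17342692 to 17356728. The RefSeq window from 250 bases before to 50 bases after the NR2F1 start is shown because NR2F1 is the member with the large difference between libraries. It lies in GRCh38.p14 at chr5:93582972-93583271 on the plus strand.
NR2F1: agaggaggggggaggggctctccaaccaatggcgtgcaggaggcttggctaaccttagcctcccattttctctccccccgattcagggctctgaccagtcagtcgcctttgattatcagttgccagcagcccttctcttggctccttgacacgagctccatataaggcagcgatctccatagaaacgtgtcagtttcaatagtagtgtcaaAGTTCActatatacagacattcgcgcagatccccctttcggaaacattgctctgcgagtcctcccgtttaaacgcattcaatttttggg
The capitals mark the 1 match to AGTTCA, a variant of the nuclear receptor half-site, when both strands were searched. That motif occurs in 10.4% of the 35116 RefSeq windows of this length. AGGTCA has no match in these letters and occurs in 13.8% of the windows. The window holds 12 CpG sites, against a median of 14.

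NR2F1 RNA was scarce without JQ1 and several-fold more abundant with it. Its level was 1.63 CPM before treatment (23 UMIs), 3.39 CPM with DMSO (36 UMIs), 2.42 CPM with paclitaxel (44 UMIs) and 6.58 CPM with palbociclib (109 UMIs). It was 32.0 CPM in JQ1-A (518 UMIs), 28.9 CPM in JQ1-B (586 UMIs), 21.4 CPM with JQ1+paclitaxel (307 UMIs) and 38.5 CPM with JQ1+palbociclib (933 UMIs). The 4 libraries with JQ1 all lay above the 4 without it, with means of 30.2 ± 7.10 CPM (SD, n = 4) and 3.51 ± 2.17 CPM (SD, n = 4), an 8.61-fold ratio. Of the 9288 genes tested, 5.45% had all JQ1 libraries above all others, and NR2F1 was chosen for this contrast, so nothing is read from its place among them. The fitted JQ1 log2 fold change was 3.37 ± 0.26 (SE).

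In the order of levels, JQ1+palbociclib stood highest, followed by JQ1-A and JQ1-B. The JQ1-A to JQ1-B ratio was 1.11 (95% interval 0.983 to 1.25, counting error only), so both JQ1 libraries could not be separated at this depth. JQ1+palbociclib was 1.33 times JQ1-B (1.20 to 1.48) and JQ1+paclitaxel was 0.669 times JQ1-A (0.579 to 0.772). Among the libraries without JQ1, palbociclib was 1.94 times DMSO (1.32 to 2.92), whereas paclitaxel and DMSO had a ratio of 0.714 (0.449 to 1.14). DMSO was itself 2.08 times the library before treatment (1.20 to 3.67), with no drug in either, so the palbociclib ratio is no larger than this one. Within matched partners, the JQ1 ratio was 9.44 for DMSO (6.73 to 13.6), 8.84 for paclitaxel (6.43 to 12.4) and 5.85 for palbociclib (4.79 to 7.20). These intervals cover the counting of UMIs in 2 libraries and say nothing of how far parallel cultures differ.

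**Figure D1:**
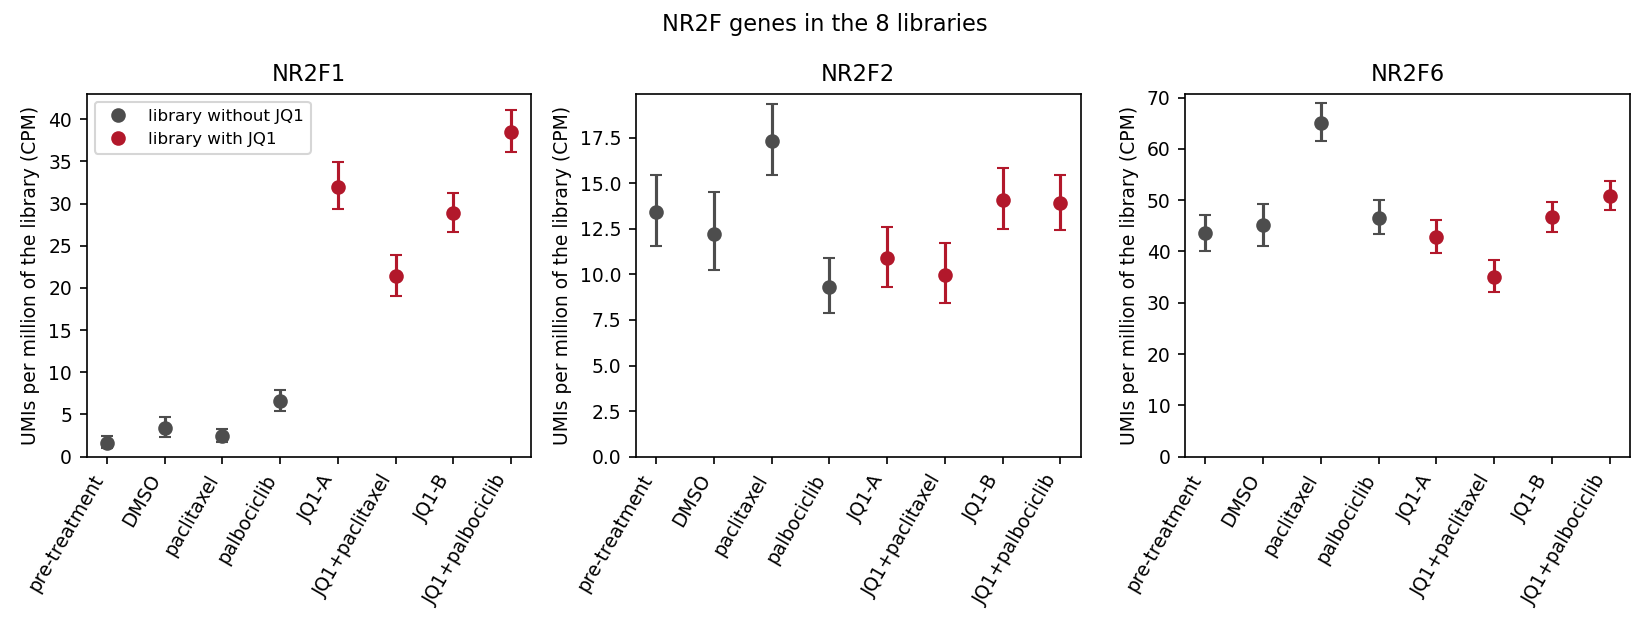
Level of NR2F1, NR2F2 and NR2F6 (vertical axis, CPM) in each of the 8 libraries (horizontal axis), with bars for the exact 95% Poisson interval. NR2F1 is at most 6.58 CPM without JQ1 and at least 21.4 CPM with it, whereas the NR2F2 and NR2F6 libraries with and without JQ1 overlap.

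NR2F2, the receptor closest in sequence to NR2F1, did not follow it. NR2F2 stood at 13.4 CPM before treatment, 12.2 with DMSO, 17.3 with paclitaxel and 9.30 with palbociclib. It stood at 10.9 CPM in JQ1-A, 14.1 in JQ1-B, 9.97 with JQ1+paclitaxel and 13.9 with JQ1+palbociclib. The ranges with and without JQ1 overlapped, and the group means were 12.2 ± 2.1 and 13.1 ± 3.32 CPM (SD, n = 4 each). The fitted JQ1 log2 fold change was 0.12 ± 0.19 (SE) with TMM scaling and -0.07 with scaling to library totals, which shifted the median of all genes from 0.00 to -0.20. NR2F2-AS1 had only 8 to 23 UMIs per library (0.494 to 1.32 CPM), too few to compare.

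NR2F6 was detected in most cells of nearly every library and its level varied most in the libraries with paclitaxel. It was 43.5 CPM before treatment, 45.1 with DMSO, 46.6 with palbociclib and 65.1 with paclitaxel. With JQ1 it was 42.8 CPM in JQ1-A, 46.6 in JQ1-B, 50.8 with JQ1+palbociclib and 35.1 with JQ1+paclitaxel. The library with paclitaxel alone was thus the highest and the one with JQ1+paclitaxel the lowest of the 8. The fitted JQ1 log2 fold change was 0.01 ± 0.15 (SE), and -0.18 with library totals.

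The rule did not use the partner drugs, so their terms were tested over all genes with the quasi-likelihood test of edgeR, adjusted after Benjamini and Hochberg. For palbociclib, the NR2F1 log2 fold change was 0.81 ± 0.29 (SE, adjusted p = 0.164), and the gene was higher in 2 of 2 comparisons with the partner library, but did not pass. In that term 0.28% of genes were called. The fit has no term for passaging, and without the library before treatment the NR2F1 estimate was 0.59. Without the JQ1+palbociclib library the NR2F1 estimate was 1.45 (adjusted p = 0.0360), and without the palbociclib library it was 0.34. NR2F2 (-0.08 ± 0.23, adjusted p = 0.859) and NR2F6 (0.17 ± 0.18, adjusted p = 0.615) did not pass either.

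For paclitaxel, edgeR called 0% of genes (0 of 9288, with 395 at an unadjusted p under 0.05), while DESeq2 called 9. The NR2F1 value was -0.32 ± 0.31 on the log2 scale (SE, adjusted p = 0.897). NR2F2 had 0.13 ± 0.23 (adjusted p = 0.944) and NR2F6 0.17 ± 0.19 (adjusted p = 0.903). For NR2F6 the average covers opposite values with and without JQ1. Paclitaxel against DMSO gave ratios of 1.42 for NR2F2 (1.15 to 1.75) and 1.44 for NR2F6 (1.3 to 1.61), whereas JQ1+paclitaxel against JQ1-A gave 0.917 (0.730 to 1.15) and 0.820 (0.730 to 0.921), the former with an interval that includes 1.

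The difference between these effects was tested with interaction terms, which leave 2 residual degrees of freedom. For JQ1 with paclitaxel, 0.388% of genes were called, and NR2F6 was not among them with a log2 interaction of -0.86 ± 0.20 (SE, adjusted p = 0.107). It passed when the library before treatment (-0.84, adjusted p = 0.00485) or the DMSO library (-0.88, adjusted p = 0.00476) was left out, and had an adjusted p of 0.231 and 0.523 without JQ1-A and JQ1-B. These alternatives were chosen after seeing the data. NR2F2 had -0.71 ± 0.28 (adjusted p = 0.255) and NR2F1 -0.47 ± 0.44 (adjusted p = 0.615). For JQ1 with palbociclib, 0.0108% of genes were called, and NR2F1 had -1.28 ± 0.39 (adjusted p = 0.170). Without the DMSO library that NR2F1 value was -1.84 (adjusted p = 1.87e-05), and without the others its adjusted p ran from 0.131 to 0.608. Each library left out here removes 1 of the 2 residual degrees of freedom, so the spread then comes mostly from other genes.

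The share of cells with an NR2F1 UMI rose with the level. Among cells passing the study's filter it was 3.54% before treatment, 6.42% with DMSO, 4.86% with paclitaxel and 14.0% with palbociclib. It was 41.6% in JQ1-A, 39.2% in JQ1-B, 34.7% with JQ1+paclitaxel and 52.5% with JQ1+palbociclib. No cell type in this culture is known to lack NR2F1, so free RNA in the droplets has no reference here. The shares without JQ1 cannot serve as one, since those libraries hold less NR2F1 RNA to release. Libraries without JQ1 had median depths within the same range of 20664 to 22503 UMIs per cell.

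To compare cells at 1 depth, each was thinned to 10000 UMIs at random, which left 5487 cells (7 to 19 per library were too shallow). The shares were then 1.37%, 3.60%, 2.60% and 5.29% before treatment and with DMSO, paclitaxel and palbociclib. With JQ1 they were 21.8% in JQ1-A (95% exact binomial interval 18.7 to 25.2), 20.7% in JQ1-B (18.0 to 23.6), 19.6% with JQ1+paclitaxel (16.5 to 23.0) and 30.6% with JQ1+palbociclib (27.7 to 33.6). Most positive cells held 1 NR2F1 UMI, for example 235 of 297 with JQ1+palbociclib, where 44 cells held 2 and 18 held 3 or more. The UMIs per positive cell averaged 1 to 1.11 without JQ1 and 1.12 to 1.32 with it.

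The spread of NR2F1 UMIs over cells differed between JQ1 libraries in a way that depended on the thinning depth. The variance to mean ratio, which is 1 when molecules fall at random, was 1.37 in JQ1-A, 1.27 in JQ1-B and 1.25 with JQ1+palbociclib. With JQ1+paclitaxel it was 1.02. Thinned to 5000 UMIs, the ratios were 1.17 in JQ1-A, 1.14 in JQ1-B, 1.05 with JQ1+palbociclib and 1.06 with JQ1+paclitaxel. These ratios have no intervals. With all UMIs of each cell kept, the ratios were 1.85, 1.86, 1.71 and 1.34 in that order, and cells then also differ in depth. The highest count in a single cell was 10 UMIs, in JQ1-B and in JQ1+palbociclib.

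**Figure D2:**
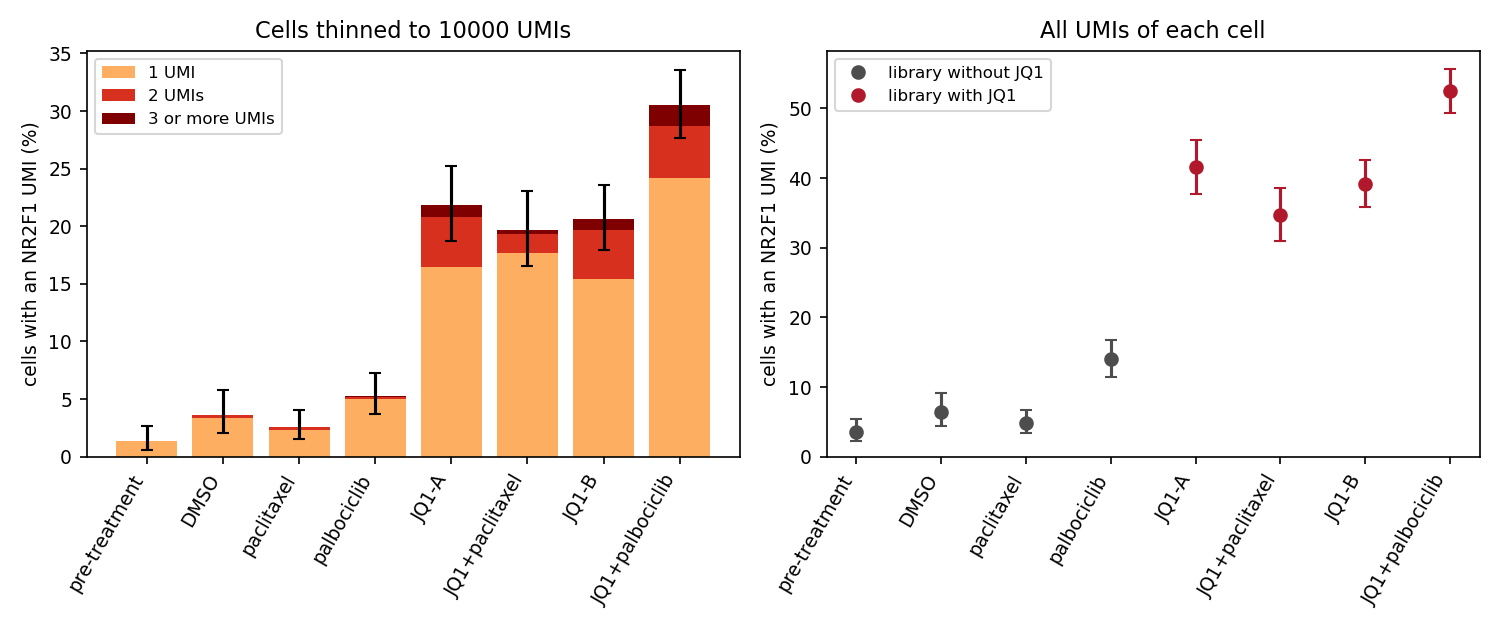
Share of cells with an NR2F1 UMI in each library, on the left for cells thinned to 10000 UMIs and stacked by the UMIs per cell, on the right with all UMIs, with exact 95% binomial intervals. The thinned shares run from 1.37% to 5.29% without JQ1 and from 19.6% to 30.6% with it, mostly as cells with 1 UMI.

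Within JQ1 libraries, NR2F1 was compared between cell cycle phases called from S and G2/M gene lists, with the members left out of the scoring. In JQ1-B it was 35.3 CPM in G1 cells (95% interval 29.5 to 42), 20.9 in S cells (15.5 to 27.7) and 19.8 in G2/M cells (14.5 to 26.3). With JQ1+paclitaxel the levels were 26.6 CPM in G1 (20.9 to 33.2), 20.1 in S and 15.4 in G2/M (9.99 to 22.8). JQ1-A ran from 27.9 to 31.1 CPM and JQ1+palbociclib from 37.9 to 40.5 CPM over the phases, with overlapping intervals. The G1 level was thus the highest in 3 of 4 libraries, by a margin past counting error in JQ1-B.

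Clusters were formed within each JQ1 library without the members. NR2F1 ran from 27.8 to 37.5 CPM over the clusters of JQ1-A and from 18.9 to 25.6 CPM with JQ1+paclitaxel, with overlapping intervals. In JQ1-B it was 33.5 CPM (27.7 to 40.2) in the cluster led by STAC2 and NEAT1 and 21.7 CPM (17.1 to 27.2) in that led by MMP1 and CCNB1, which do not overlap. With JQ1+palbociclib, the 127 cells of the cluster led by COL1A1, TIMP3 and HTRA3 (matrix and matrix-protease genes) held NR2F1 at 19.7 CPM (12.7 to 29.1), against 36.4 to 46.2 CPM in the other 4 clusters. The cluster at 36.4 CPM (26.4 to 48.8) had an interval that overlapped it. In the same library NR2F2 was highest, at 29.8 CPM (20.8 to 41.2), in the 121 cells led by PKIB and MMP1, against 8.78 to 16.4 CPM elsewhere. That interval overlapped those of the clusters at 16.4 CPM (11.2 to 23.2) and 14.2 CPM (8.40 to 22.4). Among JQ1+paclitaxel cells, NR2F6 was 53.4 CPM (42.3 to 66.5) in the cluster led by ADIRF, SAA1 and FABP4 and 22.6 CPM (16.0 to 31.0) in that led by SEPP1 and IFI27. These clusters stay unnamed, and with 1 library each the differences have no replicate.

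**Figure D3:**
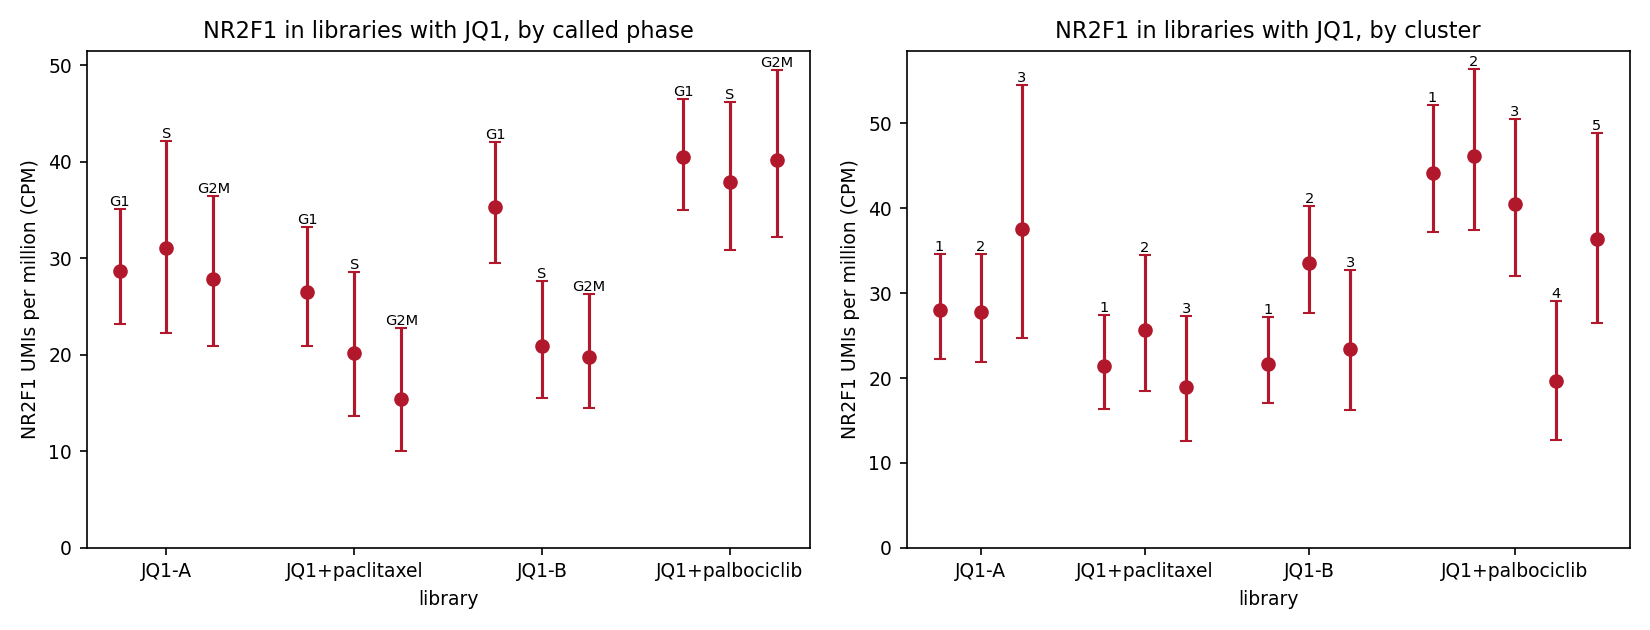
NR2F1 level (CPM, cells thinned to 10000 UMIs) in the 4 JQ1 libraries, by called phase on the left and by cluster number on the right, with exact 95% Poisson intervals. Within JQ1-B, G1 is the highest phase at 35.3 CPM, and cluster 4 of JQ1+palbociclib is lowest of its library at 19.7 CPM.

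The relatives were found in cells with and without NR2F1 at like rates. NR2F2 had a UMI in 12.0% of NR2F1-positive and 10.6% of NR2F1-negative cells of JQ1-A, in 15.1% and 8.62% with JQ1+paclitaxel, in 11% and 13.6% in JQ1-B, and in 13.8% and 13.2% with JQ1+palbociclib. For NR2F6 the shares were 26.1% and 33.7% in JQ1-A, 31.1% and 29.4% with JQ1+paclitaxel, 37.6% and 34.2% in JQ1-B, and 36.0% and 37.3% with JQ1+palbociclib. The mean difference over the 4 libraries was 1.47 ± 3.76 percentage points for NR2F2 and -0.95 ± 4.84 for NR2F6 (SD, n = 4), with both directions among the libraries. Thinned to 5000 UMIs, the means were -1.52 ± 1.76 for NR2F2 and 2.86 ± 2.18 for NR2F6. With all UMIs kept, where depth differs, they were 2.37 ± 2.98 and 4.79 ± 1.60. In both of these settings NR2F6 was more frequent in NR2F1-positive cells in 4 of 4 libraries.

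Cells with an NR2F1 UMI were then compared with the rest of their library for every other gene, as sums per library with library as a block. If UMIs fell at random, 25.1% of thinned cells would be positive in JQ1-A (21.8% seen) and 23.6% in JQ1-B (20.7% seen). The share would be 19.7% with JQ1+paclitaxel (19.6% seen) and 32.8% with JQ1+palbociclib (30.6% seen). Many cells without a UMI may thus still hold NR2F1 RNA. The positive sums held 142 cells in JQ1-A, 119 with JQ1+paclitaxel, 173 in JQ1-B and 297 with JQ1+palbociclib, and the negative sums 508, 487, 664 and 675 cells. By edgeR's quasi-likelihood test 108 of 9206 genes (1.17%) passed an adjusted p of 0.05, 58 higher and 50 lower in positive cells. The differences were small, with a median size of 0.24 on the log2 scale, and 101 of the 108 had the same sign in 4 of 4 libraries. Leaving out JQ1-B reduced the count to 29 and leaving out JQ1+palbociclib raised it to 158, and among G1 cells alone no gene passed (edgeR, lowest adjusted p = 0.0921, 539 genes at an unadjusted p under 0.05).

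The largest rises in NR2F1-positive cells were in genes of low level. SLPI, a secreted protease inhibitor, rose by 1.20 ± 0.33 on the log2 scale (SE, adjusted p = 0.0385), with 13.4 against 5.13 CPM in JQ1+paclitaxel and 2.82 against 1.38 CPM in JQ1-A. MSL2, a ubiquitin ligase of the MSL chromatin complex, had 1.13 ± 0.28 (adjusted p = 0.0198). GPRC5C, an orphan G protein-coupled receptor, had 0.92 and YPEL3 had 0.75. Among genes of the cell surface, the protocadherin PCDH17 had 0.71, the netrin receptor UNC5B 0.71 and the ephrin receptor EPHB6 0.53.

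HBE1, the embryonic epsilon globin, gave the strongest test of the named rises. It was 73.9 CPM in positive and 49.4 CPM in negative cells of JQ1-A, 58.8 and 52.2 with JQ1+paclitaxel, 102 and 56.2 in JQ1-B, and 201 and 144 with JQ1+palbociclib. The positive sum was higher in 4 of 4 libraries, by 0.58 ± 0.07 on the log2 scale (SE, adjusted p = 2.64e-09). In JQ1+palbociclib HBE1 led a cluster of 319 cells that held NR2F1 at 44.2 CPM. The other clusters held NR2F1 at 46.2, 40.5, 36.4 and 19.7 CPM, so that cluster was not the highest. PKIB, an inhibitor of protein kinase A, had 0.52 ± 0.10 (adjusted p = 0.000383), with hardly any difference in JQ1+palbociclib (33.7 against 33.5 CPM).

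The genes lower in NR2F1-positive cells included several of mitosis. CDC20, the activator of the anaphase-promoting complex, was 58.5 CPM in positive and 95.3 CPM in negative cells of JQ1-A, 66.4 and 137 with JQ1+paclitaxel, 65.9 and 109 in JQ1-B, and 44.1 and 53.6 with JQ1+palbociclib. Its log2 fold change was -0.63 ± 0.08 (SE, adjusted p = 1.51e-08). SGOL2, which protects centromeric cohesion, had -0.52, the spindle checkpoint gene MAD2L1 -0.42 and UBE2C, an enzyme that works with the same complex as CDC20, -0.39. Other genes of the set were the keratin gene KRT75 (-1.35 ± 0.24, adjusted p = 0.000101), PLD5 (-1.38), the dipeptidase PEPD (-0.71), C1orf35 (-0.48), the glycan-building enzyme MGAT2 (-0.45) and MRTO4 of ribosome assembly (-0.44). Among G1 cells alone, where no gene passed, CDC20 had -0.17 ± 0.18, SGOL2 -0.47 ± 0.41, MAD2L1 -0.17 ± 0.25 and UBE2C -0.21 ± 0.23 (SE). CDC20 and UBE2C belong to the G2/M list that called the phases, so taking G1 cells picks cells low in both. KRT75 had -0.86 ± 0.32 and PEPD -0.62 ± 0.22 in that fit. Without thinning, 19 of the 108 genes were also called, among them HBE1, EPHB6, KRT75 and CDC20. SLPI was not tested there and the others named did not pass. MSL2 then had 0.37, YPEL3 0.16, PEPD -0.13 and UBE2C -0.04 on the log2 scale.

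Of the 53 tested genes of the G2/M list that called the phases, 7 fell in positive cells and none rose, with a median log2 difference of -0.24 against 0.01 over all genes. Among G1 cells alone, which were picked in part by this same list, the median of its 41 tested genes was -0.07. Of 13 mitochondrially encoded genes, 10 rose, by 0.11 to 0.20, and of 78 cytosolic ribosomal protein genes, 14 rose and 0 fell, groups that were chosen after their values were seen. Beside these counts, 1.17% of all genes were called in this comparison. The median was 0.14 for the mitochondrially encoded and 0.09 for the ribosomal protein genes, and 0.09 and 0.05 among G1 cells alone. The positive cells were also called G1 more often, at 55.6% against 49.0% in JQ1-A, 56.3% against 45.8% with JQ1+paclitaxel, 56.1% against 40.4% in JQ1-B and 52.2% against 49.9% with JQ1+palbociclib.

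Their median mitochondrial share was higher in 4 of 4 libraries, for example 7.71% against 6.99% with JQ1+palbociclib. Their median depth before thinning was lower in 4 of 4 libraries, for example 19758 against 21658 UMIs with JQ1+paclitaxel. The part of phase, mitochondrial share and depth in the called genes was not tested. The fit on G1 cells alone picked cells by the phase genes themselves and held fewer cells.

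**Figure D4:**
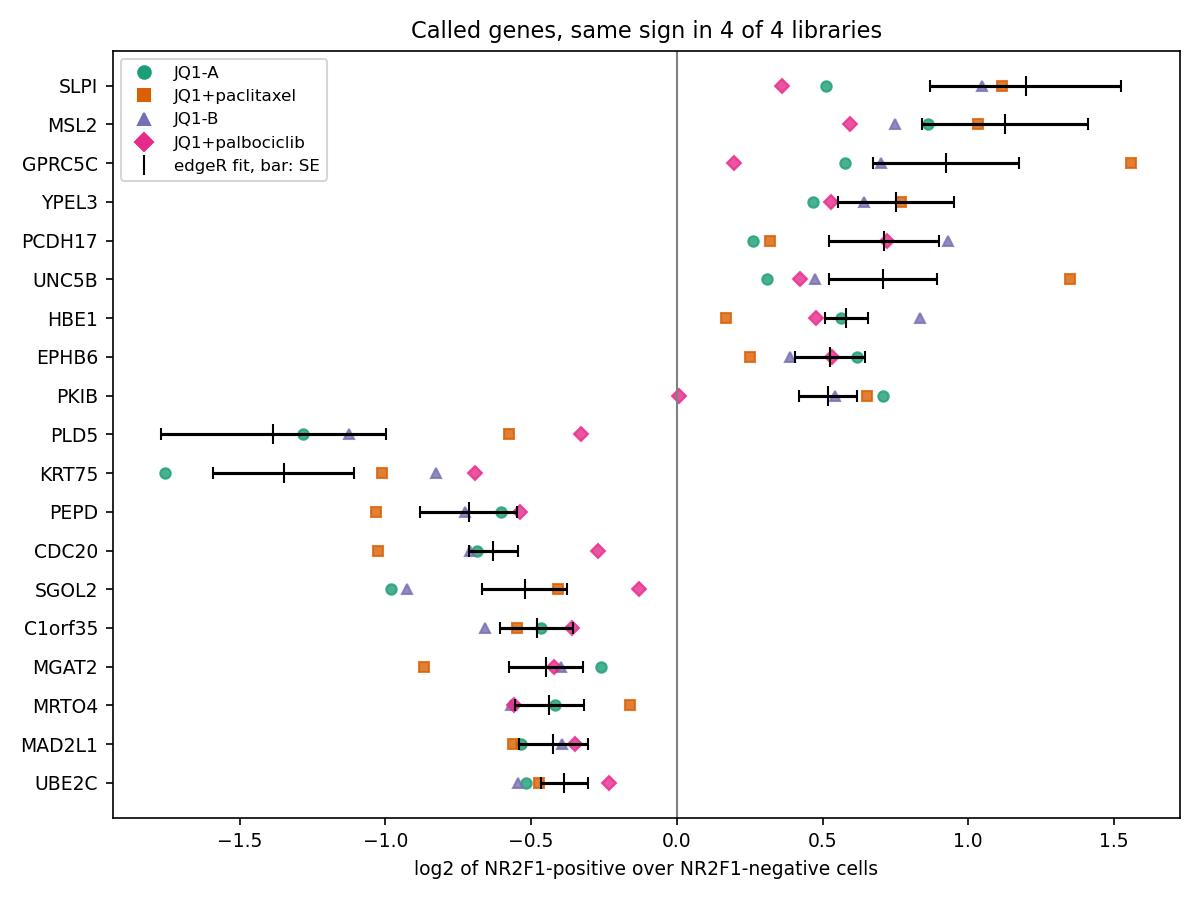
Log2 ratio of NR2F1-positive over NR2F1-negative cells (horizontal axis) for named genes of each direction, with 1 symbol per JQ1 library (2 CPM added to both values) and the edgeR fold change with its SE in black. The genes were chosen for the same sign in 4 of 4 libraries, with HBE1 at 0.58 and CDC20 at -0.63 in the fit.

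Other nuclear receptors could share partners or sites with the members, and 18 of the 45 listed were abundant enough to test under JQ1. Of these, 3 rose, 2 fell and 13 did not pass, a called share of 27.8% beside 37.6% of all genes tested. RXRA, the partner of many receptors, rose by 1.12 ± 0.15 on the log2 scale (SE, adjusted p = 0.00201) and the thyroid hormone receptor gene THRA by 0.85 ± 0.19 (adjusted p = 0.0117). With palbociclib alone, RXRA was 25.6 CPM, inside its range with JQ1 (24.3 to 38.6 CPM). THRA was 27.3 CPM there, just below its range with JQ1 (27.4 to 29.2 CPM). PPARG, the adipocyte receptor, fell from 21.6 to 31.5 CPM without JQ1 to 7.63 to 14.7 CPM with it (-0.87 ± 0.17, adjusted p = 0.00607), and RARG fell with -0.46 ± 0.14 (adjusted p = 0.0316). Between NR2F1-positive and negative cells, 1 of 18 tested receptors passed the edgeR test, beside 1.17% of all genes. It was NR4A1 (0.36 ± 0.10, adjusted p = 0.0470, higher in 3 of 4 libraries).

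Of 17 cofactor genes listed for COUP-TF receptors, 12 were tested, and 4 rose and 4 fell (66.7%, beside 37.6% of all genes, median log2 change 0.03). The 8 calls became 3 without the library before treatment, JQ1-A or JQ1-B, 4 without DMSO, and 0 with 3 matched pairs or experiment as a term. The coactivator genes NCOA3 (0.76 ± 0.13 SE) and NCOA1 (0.66 ± 0.13) and the deacetylase SIRT1 (0.65 ± 0.17) were among those that rose. For each of them the levels with and without JQ1 overlapped. NCOA3, for example, was 25.7 CPM with palbociclib alone and 24.1 CPM with JQ1+paclitaxel. HDAC2 (-0.73 ± 0.13), the autophagy adaptor SQSTM1 (-0.36 ± 0.12), HDAC1 (-0.32 ± 0.10) and KDM1A (-0.27 ± 0.09) fell. SIRT1 did not pass with library totals (edgeR, adjusted p = 0.0719). BCL11A, a neural partner, stayed at or below 0.181 CPM and was not tested.

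The retinoid list had 21 genes, of which 7 were tested, 1 rose (RXRA) and 2 fell (RARG and RDH11, a retinol dehydrogenase, -0.43 ± 0.10), or 42.9%, near the 37.6% of all genes. RARB has no row in the table. Of the 10 genes linked to NR2F1 in dormancy, 5 were tested and 2 rose, or 40.0%, again near the 37.6% of all genes. SOX9, a transcription factor of progenitor cells, was 6.17 to 9.51 CPM without JQ1 and 18.5 to 22.7 CPM with it (1.53 ± 0.16, adjusted p = 0.000960). CDKN1A, which encodes the inhibitor p21, was 16.2 to 32.3 and 38.7 to 54.7 CPM (1.07 ± 0.20, adjusted p = 0.00590). CDKN1B, which encodes p27, was 4.33 to 5.62 and 4.38 to 5.30 CPM (0.10 ± 0.18, adjusted p = 0.686), and BHLHE41 was 2.81 to 4.23 and 1.67 to 2.48 CPM, too low to be tested.

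Between NR2F1-positive and negative cells, 0 of 13 cofactor, 0 of 6 retinoid and 0 of 5 dormancy genes passed the edgeR test, beside 1.17% of all genes, a share at which lists of this size may hold no call.

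Tested genes around NR2F1 moved in both directions under JQ1. Close to NR2F1 little could be measured, as NR2F1-AS1 was not analysed and POU5F2 at 0.158 Mb was too low to be tested. Of 15 tested genes with a start within 5 Mb, 2 rose and 4 fell under JQ1, or 40.0% beside 37.6% of all genes, with a median log2 change of 0.07. The nearest tested gene downstream, FAM172A at 0.528 Mb, was 6.45 to 9.79 CPM without JQ1 and 6.40 to 9.24 CPM with it (0.24 ± 0.16, adjusted p = 0.261). The nearest upstream, ARRDC3 at -2.24 Mb, which encodes an arrestin-domain adaptor, rose by 0.91 ± 0.19 (adjusted p = 0.00813). ARRDC3 levels with JQ1 (22.7 to 35.2 CPM) and without it (13.0 to 27.7 CPM) overlapped. The largest rise was in the transcription factor gene MEF2C (1.02 ± 0.23, adjusted p = 0.0114), although its levels with JQ1 (3.01 to 7.79 CPM) and without it (1.63 to 5.23 CPM) overlapped, and the largest fall in POLR3G, a subunit gene of RNA polymerase III (-1.33 ± 0.24, adjusted p = 0.00489). Between NR2F1-positive and negative cells, 1 of these 15 neighbours passed the edgeR test, beside 1.17% of all genes. It was ELL2 (0.38 ± 0.10, adjusted p = 0.0259, higher in 4 of 4 libraries).

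The 22 called genes of all 5 lists kept their sign with library totals, with DESeq2, with 3 matched pairs of libraries and with the experiment as a term. The latter fits have fewer residual degrees of freedom, and 2 of the 22 passed in them. Across all genes, library totals changed the split of JQ1 calls from 1655 higher and 1833 lower to 865 higher and 2912 lower.

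**Figure D5:**
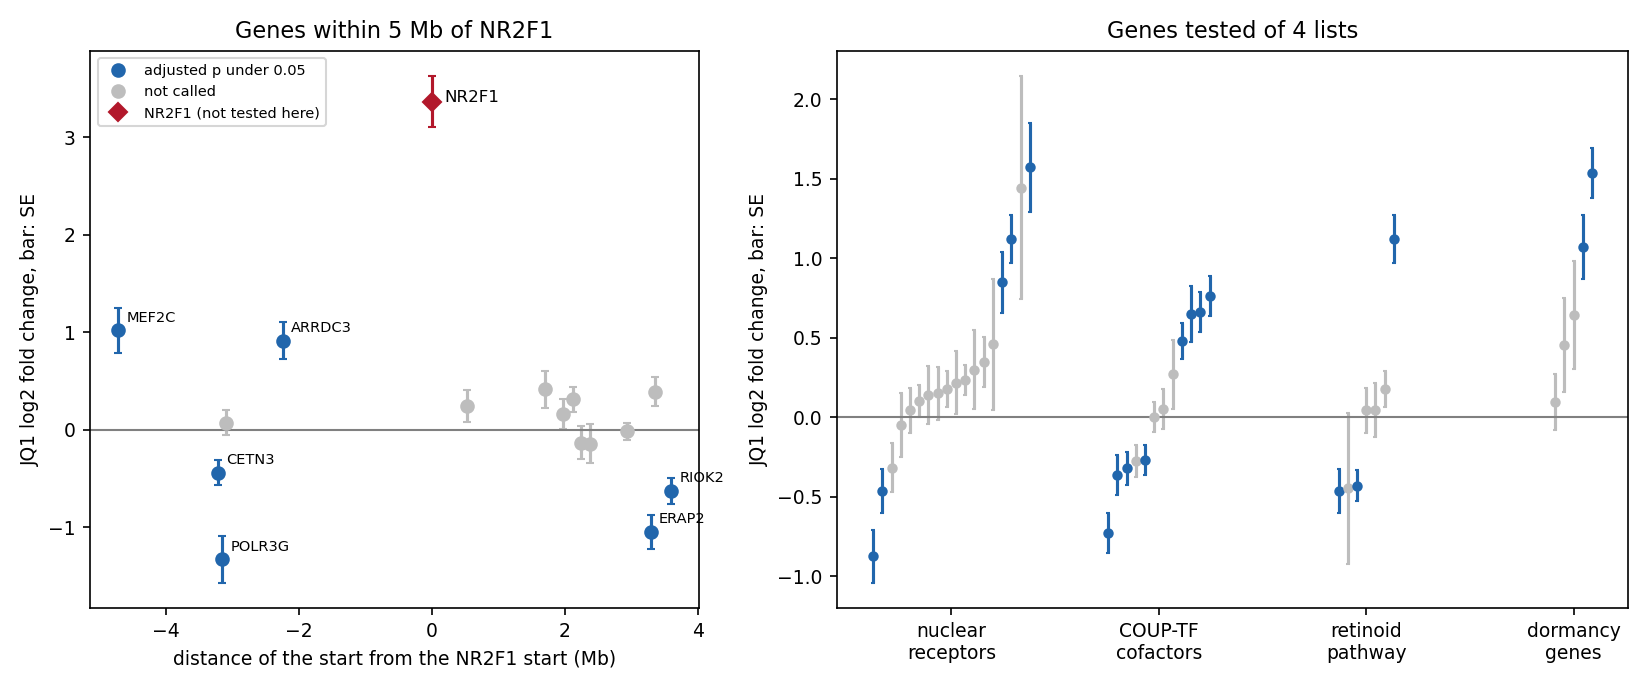
JQ1 log2 fold change with its SE for tested genes within 5 Mb of NR2F1 by distance from its start (left), and for the tested genes of 4 lists in order of size (right), with genes of an adjusted p under 0.05 in blue. The neighbours lie between -1.33 and 1.02. NR2F1 at 3.37 is drawn for orientation only, since it was chosen for this contrast.

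The pattern of NR2F1 over the 8 libraries was compared with that of 4432 other genes by Pearson's r of log2 CPM, as a description, since the libraries share the JQ1 split. The 8 most alike were EHD2 (r = 0.998), KANK2 (0.995), USP34 (0.991), ITFG3 (0.991), VSTM2L (0.990), PRKACA (0.988), SPTAN1 (0.985) and TMSB10 (0.984), and 293 genes had an r of at least 0.9. EHD2, a membrane-shaping ATPase of caveolae, ran from 32.5 CPM before treatment over 48.0 CPM with palbociclib to 71.7 CPM with JQ1+paclitaxel and 88.4 CPM with JQ1+palbociclib. Within the 4 JQ1 libraries r was 0.91 for EHD2, 0.94 for KANK2, a cytoskeletal adaptor, and 0.95 for VSTM2L, but -0.58 for ITFG3 and -0.40 for TMSB10, an actin-binding thymosin. The fold changes of these 8 genes under JQ1 ran from 0.66 to 2.62 on the log2 scale. For its relatives, r with NR2F1 was 0.09 for NR2F2 and 0.10 for NR2F6, while NR2F2 and NR2F6 had an r of 0.68 with each other.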

How the data were processed

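Single-cell RNA libraries (10x Genomics 3′) of SUM159 cells were used. Per the study's methods and submitters' notes, reads were aligned to hg19 and counted with Cell Ranger, and cells and genes were filtered with Seurat. The deposited values are raw UMI counts per gene and cell, and the metadata table gives each cell's library. All 5738 cells were summed per library, and 5575 passed the study's filter (1 to 15% mitochondrial UMIs and at least 2000 genes). The deposited table still holds the other cells. Doublets were not called, and leaving out cells above the 95th UMI percentile was an alternative.

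Library sums were fitted with edgeR 4.0.16 (quasi-likelihood, TMM, genes with at least 5 CPM in 2 libraries, 9288 genes) with JQ1, palbociclib and paclitaxel as terms and 4 residual degrees of freedom. SEs were taken from the F statistic. Cells were thinned to 10000 UMIs for shares, phases and clusters (Seurat 5.3.0) and for the comparison of NR2F1-positive with negative cells, which has 3 residual degrees of freedom and borrows its spread across genes. Benjamini-Hochberg adjustment ran over all genes tested. Gene positions came from GENCODE 44 on GRCh37. Intervals are exact and cover counting error only.

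The members and lists were chosen with earlier results of these data known. Named were, for positive against negative cells, the 10 called genes of largest fold change each way with 1 sign in 4 of 4 libraries, the 8 genes most like NR2F1 among those of at least 20 CPM, up to 6 called genes per list with RARB, SOX9, CDKN1B, BHLHE41 and BCL11A, and the nearest and most changed neighbours. Some genes that the rule names are not reported here.

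On simulated counts for 9288 genes, all of the 200 genes changed by a log2 fold of 2 were recovered (100%), with 6 to 8 unchanged genes called. For positive against negative cells (9206 genes), 87% were recovered at a log2 fold of 1 and 100% at 2, with 9 unchanged genes called. DESeq2 1.42.0, limma 3.58.1, other scalings, filters and left-out libraries were the alternatives.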

Additional observations from a re-analysis of the deposited data

Results flagged for a closer look

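NR2F6 with paclitaxel alone stood apart from the other libraries without JQ1. Its level was 65.1 CPM, against 43.5 to 46.6 CPM in the other 3, and its share of thinned cells with a UMI was 47.5%, against 34.6% to 36.0%. In both measures the gap to the nearest library took up most of the group's range, 0.859 and 0.890 of it. Both measures come from the same UMIs, the 4 libraries had different treatments, and 12 such groups were examined, of which chance flags about 1 in 20.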

How the results depend on the processing

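Leaving out each library in turn, the JQ1 log2 fold change of NR2F1 ranged from 3.11 to 3.74, that of NR2F2 from -0.05 to 0.34 and that of NR2F6 from -0.05 to 0.22. The palbociclib term ranged from 0.34 to 1.45 for NR2F1, from -0.45 to 0.22 for NR2F2 and from 0.06 to 0.27 for NR2F6, and the paclitaxel term from -0.51 to -0.18, from -0.34 to 0.52 and from -0.29 to 0.55. With experiment as a term, palbociclib gave -0.031 for NR2F6. NR2F2 and NR2F6 had a paclitaxel term of -0.34 and -0.29 without the paclitaxel library, and NR2F2 a palbociclib term of 0.22 without the palbociclib library and 0.01 without JQ1-B. In the interaction fits, with alternatives chosen after seeing the data, the JQ1 by palbociclib term ranged from -1.84 to -0.80 for NR2F1, 0.28 to 0.62 for NR2F2 and -0.11 to -0.02 for NR2F6 (0.11 with library totals). The JQ1 by paclitaxel term ranged from -1.02 to 0.015 for NR2F1, with 0.015 without the library before treatment, -0.87 to -0.53 for NR2F2 and -0.91 to -0.81 for NR2F6. Over all genes, JQ1 calls went from 3488 to 361 with 3 matched pairs, and palbociclib calls from 26 to 515 with DESeq2, 938 without JQ1+palbociclib and 0 with experiment as a term (372 at an unadjusted p under 0.05). List genes called numbered, in the order nuclear receptors, cofactors, retinoid, dormancy and neighbours, 1, 0, 1, 1 and 0 with 3 matched pairs and with experiment as a term. Leaving out libraries gave 4 to 6, 3 to 7, 1 to 3, 2 to 4 and 5 to 8. Without the filter on low counts the retinoid list had 5 and the dormancy list 4 calls, and without the deepest cells the cofactor list had 5. Between NR2F1-positive and negative cells, 61 genes were called by DESeq2 (52 of the 108), 55 without thinning (19 of the 108), 6 when thinned to 5000 UMIs (5 of the 108), 5 when positive meant at least 2 UMIs (5 of the 108), 0 among G1 cells (539 at an unadjusted p under 0.05), 120 without the filter, 58 by limma, and 29 to 158 when a library was left out. Of the 108 called, 103 of the 107 with a value kept their sign among G1 cells, and UBE2C turned to 0.060 at 2 UMIs or more. The share of cells with an NR2F1 UMI was 13.8%, 12.8%, 11.3% and 18.8% in JQ1-A, JQ1-B, JQ1+paclitaxel and JQ1+palbociclib when thinned to 5000 UMIs, and 41.6%, 39.2%, 34.7% and 52.5% without thinning, as depth sets it. Without thinning, NR2F6 was found 4.79 percentage points more often in NR2F1-positive cells, and 2.86 points more often when thinned to 5000 UMIs. The causes of the other changes were not tested. No paired analysis was possible because no group but JQ1 has more than 1 library, so replicate numbers pair nothing. The 3 matched pairs above join libraries by experiment and partner drug instead.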
